A study of Mus musculus with 3 samples.

Results

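The proliferins are secreted glycoproteins of the prolactin and growth hormone family, encoded in mouse by the near-identical genes Prl2c2, Prl2c3, Prl2c4 and Prl2c5. They were chosen by gene symbol, and all 4 were among the 24421 genes of the count table. RNA sequencing had been done on JB6 P+, a line of mouse epidermal origin that tumour promoters can transform, and the labels call it skin epithelium. The 3 libraries stood for 1 group each. The first was from cells given CDDO, a synthetic triterpenoid, at 50 nM with the phorbol ester TPA at 10 ng/mL, the second from cells given the same dose of TPA alone, and the third from control cells. Treated cells were kept in 1% serum and dosed every other day, for 5 days in all. The sources used here do not give the medium, time or vehicle of the control cells, so these cannot be told apart from TPA. No group had a replicate. No difference below therefore has a test, and every interval covers counting error only.

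Proliferins were found in mouse fibroblasts as products of cells stimulated by serum and growth factors, and in the animal they are made mainly by trophoblast giant cells of the placenta. They act on endothelial cells to promote vessel growth, in part through the mannose 6-phosphate/IGF2 receptor encoded by Igf2r. In fibroblasts, transcription of a proliferin gene is raised by phorbol esters and lowered by glucocorticoids, and both act through a promoter element at which AP-1 and the glucocorticoid receptor meet.

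The 4 symbols stand for 3 places on chromosome 13 of mm10. Prl2c2 lies at 12996124 to 13005330 on the minus strand and Prl2c5 at 13182782 to 13191840 on the plus strand, each with 5 exons. Prl2c3, at 12790821 to 12800079, and Prl2c4, at 12790818 to 12800058, are 2 models of a single locus on the minus strand, and 831 of their exonic bases are the same bases of the genome. The RefSeq table of GRCm38.p6 lists Prl2c4 as a synonym of Prl2c3 and has no entry of its own for it. Reads that touch exons of 2 genes are given to neither by the counting program unless an option asks for it, and the command in the file header has no such option. Outside the shared bases Prl2c3 had 21 exonic bases and Prl2c4 had 3. The counts of these 2 symbols below therefore cannot be read as levels of expression, and a read on the shared bases of this locus enters no sum.

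**Figure D1:**
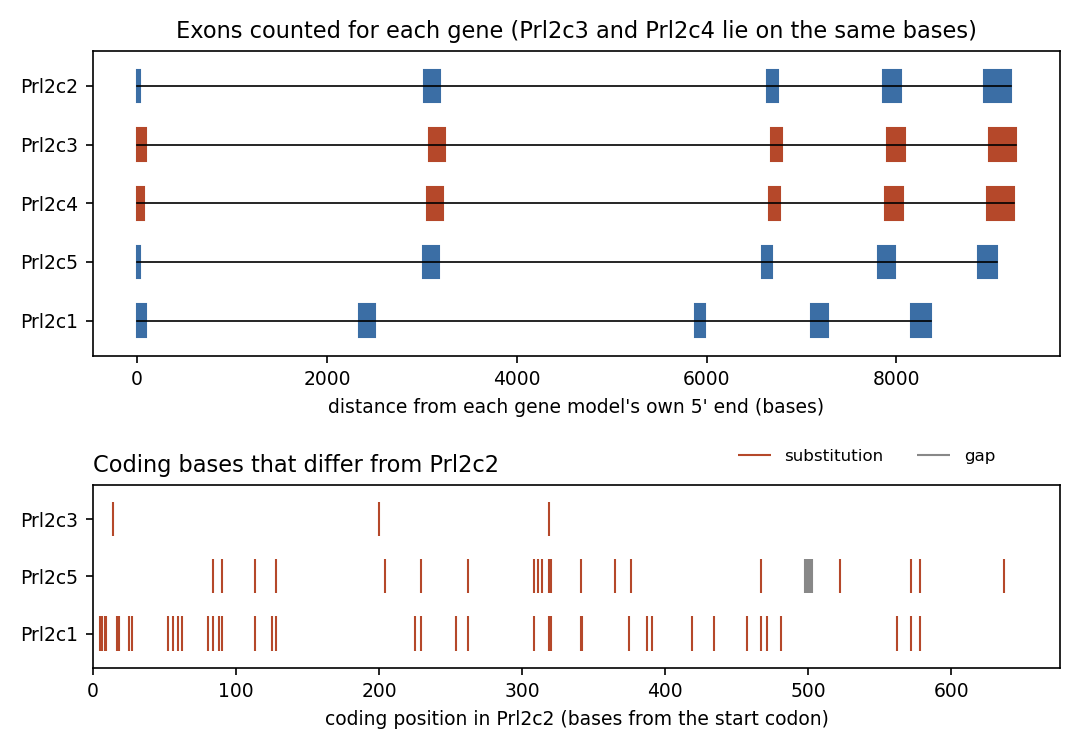
Gene models and coding differences of the Prl2c genes. Upper panel: exons counted for each gene (boxes) by distance in bases from the 5′ end of its own model, with Prl2c3 and Prl2c4, which occupy the same genomic bases, in red. Lower panel: coding positions, in bases from the start codon of Prl2c2, at which Prl2c3 (3 positions), Prl2c5 (20 substitutions and a gap of 6 bases) or Prl2c1 (40 substitutions) differ from Prl2c2.

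The copies could be told apart only at few bases. In the GENCODE M21 transcripts, the coding sequence of Prl2c3 differed from that of Prl2c2 at 3 of 675 bases (T14C, C200A and T319G, with the Prl2c2 base first and positions counted from the A of the start codon). Prl2c5 differed from Prl2c2 at 20 of 669 aligned bases, an identity of 97.0%, and lacked 6 more. Prl2c1, a relative that is not among the 4 members and lies 14.7 Mb away within the main prolactin cluster, was 94.1% identical to Prl2c2. Among stretches of 60 coding bases without a gap, the members differed most at coding positions 306 to 365, which shows bases by which a read can be placed. Stretches that hold the 6 bases lacking in Prl2c5 were left out, though these bases can also place a read. Capitals mark bases that differ from Prl2c2, in the direction of the coding strand.
Prl2c2: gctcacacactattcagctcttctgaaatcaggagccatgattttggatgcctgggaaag
Prl2c3: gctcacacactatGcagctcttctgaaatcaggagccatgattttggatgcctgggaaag
Prl2c5: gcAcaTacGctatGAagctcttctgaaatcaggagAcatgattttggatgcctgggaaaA
Prl2c1: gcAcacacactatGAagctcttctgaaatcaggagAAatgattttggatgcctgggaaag
In that stretch Prl2c3 differed from Prl2c2 at 1 base, Prl2c5 at 7 and Prl2c1 at 5. By contrast, the longest coding run shared by Prl2c2, Prl2c3 and Prl2c5 had 90 bases, positions 377 to 466 of Prl2c2, and a shorter read within it belongs equally to each.
Prl2c2, Prl2c3 and Prl2c5: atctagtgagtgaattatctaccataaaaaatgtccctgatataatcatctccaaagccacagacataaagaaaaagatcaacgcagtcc
Of all 75-base windows of the Prl2c2 transcript, 71.2% occurred without a mismatch in the Prl2c3 transcript and 8.20% in that of Prl2c5. At 150 bases, 50.9% of Prl2c2 windows still occurred in Prl2c3 and none of 693 in Prl2c5. The read length was not stated. A read that lies in such a window has no unique place among the copies, so the Prl2c2 counts may hold reads of the Prl2c3 locus and the reverse. At 50 bases, 18.5% of Prl2c2 windows occurred in Prl2c5. With short reads, the counts of Prl2c2 and Prl2c5 may therefore also hold reads of each other.

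Counted proliferin reads were absent from the control library, few in the TPA library and many in the CDDO+TPA library. Prl2c2 had 312 reads in CDDO+TPA, 32 in TPA and 0 in control. Prl2c5 had 62 reads in CDDO+TPA, 7 in TPA and 0 in control. Prl2c3 had 5 reads in CDDO+TPA, 1 in TPA and 0 in control, and Prl2c4 had 0 in every library. Prl2c2 and Prl2c5 thus stood in the same order, highest with CDDO+TPA and lowest in control, though these copies may share reads. Summed over the 4 symbols, proliferin had 379 reads in CDDO+TPA, 40 in TPA and 0 in control. Scaled to library size as CPM, the sum was 48.0 CPM in CDDO+TPA (95% Poisson interval 43.3 to 53.1), 5.02 CPM in TPA (3.59 to 6.84) and 0 CPM in control. Where control had no read, it was set to a floor of 3 reads, or 0.374 CPM in that library. A fold against this floor leaves out the counting error of the treated library, so the lower end of the exact 95% counting interval, which holds the error of both libraries, is the stricter bound and is given beside it. More cells with proliferin RNA and more of it per cell cannot be told apart in such bulk libraries.

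**Figure D2:**
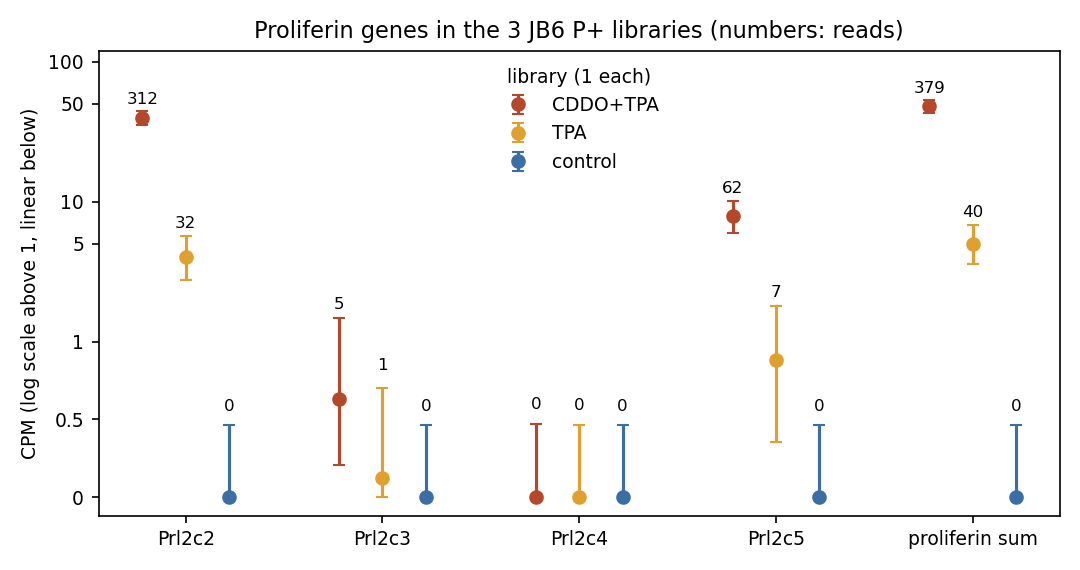
Level of each proliferin symbol and of their sum in the CDDO+TPA, TPA and control libraries, as CPM on an axis that is logarithmic above 1 and linear below, with exact 95% Poisson intervals and the number of reads above each point. The sum was 379 reads in CDDO+TPA, 40 in TPA and 0 in control, and Prl2c4, whose exons lie on those of Prl2c3, was at 0 throughout.

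TPA against control asks whether the tumour promoter came with proliferin RNA. With counting error in both libraries the sum was at least 10.4-fold higher in TPA than in control, and its fold against the floor was 13.4. Prl2c2 alone was at least 8.23-fold higher in TPA than in control, with a fold of 10.7 against the floor. Prl2c5 was at least 1.45-fold higher, with a fold of 2.35 against the floor. A size rule was used in place of a test: the log2 fold change, with a prior count of 2, had to be at least 1 up or down and the counting interval of the fold had to exclude 1. Genes reaching 1 CPM in any library were tested, 13100 in all, and in this comparison 9.57% of them were higher and 5.91% lower by that rule. Prl2c2 and Prl2c5 were tested and both were past it, higher, with log2 fold changes of 4.09 and 2.17. Prl2c5 entered only through its CDDO+TPA value, which makes a difference in some comparison more likely, and Prl2c3 and Prl2c4 did not reach 1 CPM. Of the 13100 genes, 33 had a higher log2 fold change than Prl2c2, a rank that follows the prior count: 10 genes stood above it with a prior count of 0.5 and 91 with 5. Among the genes with a mean of 10 CPM or more, 7 did. When the interval was widened for variation between cultures, assumed at a coefficient of 0.4, Prl2c5, with its 7 reads, was no longer past the rule, and Prl2c2 still was.

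With CDDO+TPA set against TPA, the question is what CDDO did on top of TPA. The proliferin sum was 9.56-fold higher in the CDDO+TPA library (95% counting interval 6.89 to 13.6). Prl2c2 was 9.84-fold higher (6.83 to 14.6) and Prl2c5 8.94-fold higher (4.09 to 23.2), so the intervals of the 2 copies overlapped. Prl2c3, with its 5 and 1 reads, had a ratio of 5.05 (0.565 to 239). Both tested copies were past the size rule, where 7.87% of all genes were higher and 7.78% lower. Of the 13100 genes, 35 had a higher log2 fold change than the 3.22 of Prl2c2. There were 73 with a prior count of 0.5, 15 with 5, and 7 among the genes with a mean of 10 CPM or more.

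The split of counted reads among the symbols differed little between these libraries. Reads on the 831 exonic bases shared by Prl2c3 and Prl2c4 are left out, so these are not shares of all proliferin RNA. Prl2c2 held 82.3% of the counted proliferin reads in CDDO+TPA (exact binomial interval 78.1 to 86.0) and 80.0% in TPA (64.4 to 90.9). Prl2c5 held 16.4% in CDDO+TPA (12.8 to 20.5) and 17.5% in TPA (7.34 to 32.8). Per length, as RPKM, which scales reads by exon length and library size, Prl2c2 was at 50.0 in CDDO+TPA and 5.09 in TPA, and Prl2c5 at 11.3 in CDDO+TPA and 1.27 in TPA. On that scale 1947 of the 13100 genes stood above Prl2c2 in CDDO+TPA, against 9463 in TPA. The models counted had 790 bases for Prl2c2 and 694 for Prl2c5, shorter than the GENCODE transcripts of 842 and 844 bases. Prl2c2 held 0.395 reads per exonic base in CDDO+TPA and 0.0405 in TPA. The alignments had duplicates removed, which caps the reads of an abundant gene if done by position, and whether this narrowed the difference was not tested.

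CDDO+TPA against control gave the widest difference. With counting error in both libraries the sum was at least 104-fold higher in CDDO+TPA than in control, and its fold against the floor was 128. Prl2c2 alone was at least 85.4-fold higher, with a fold of 106 against the floor, and Prl2c5 at least 16.6-fold higher, with a fold of 21.0 against the floor. In this comparison 8.02% of the genes tested were higher and 3.37% lower by the size rule. With a log2 fold change of 7.31, Prl2c2 stood first of the 13100 genes, and 5 genes stood above Prl2c5 at 5.01. Prl2c2 also stood first with each other scaling, prior count and filter run. Because the 3 comparisons share libraries, they are not independent of each other.

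**Figure D3:**
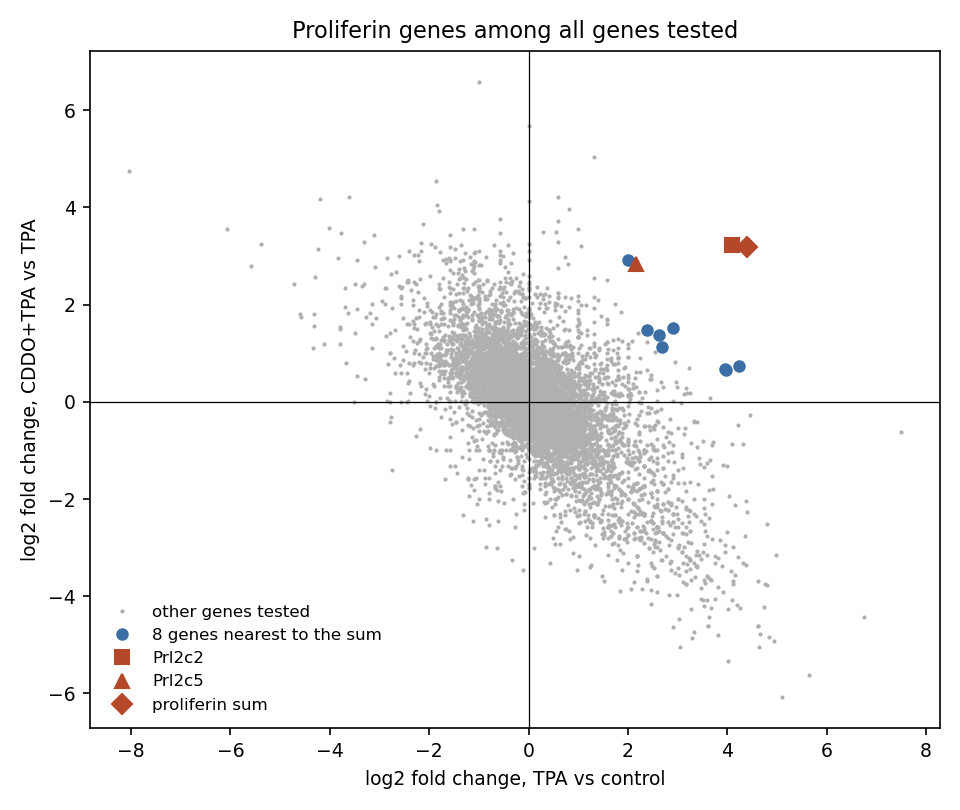
Log2 fold change in TPA against control (horizontal) and in CDDO+TPA against TPA (vertical) for the 13100 genes tested (grey), Prl2c2, Prl2c5 and the proliferin sum (red) and the 8 genes nearest to the sum (blue). The axes share the TPA library, and the sum lies at 4.39 and 3.19, with its nearest gene 2.24 away.

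No gene tested lay near the proliferin sum in the size of both changes. Likeness was measured as the distance from the proliferin sum in 2 log2 fold changes over the 3 libraries, that of TPA against control with that of CDDO+TPA against TPA. The sum lies at the edge of the 13100 genes, with 18 above it in the first change and 37 in the second. Distant neighbours follow from that place. The first change also follows the prior count, and neighbours were sought with a prior count of 2 only. The nearest gene, Mcpt8, which encodes a protease of basophils, was 2.24 away, with 83 reads in CDDO+TPA, 28 in TPA and 2 in control. Cd53, a tetraspanin known from leukocytes, had 236 reads in CDDO+TPA, 30 in TPA and 6 in control. Its log2 fold change in CDDO+TPA against TPA was 2.91. Ptprc, a phosphatase gene that marks leukocytes, had 0 reads in every library. Pdgfra, which encodes a PDGF receptor, had 607 reads in CDDO+TPA, 278 in TPA and 42 in control. The phosphatase gene Ptpn22 and the kinase gene Sgk2 were 2.89-fold (1.87 to 4.57) and 2.68-fold (1.80 to 4.08) higher in CDDO+TPA than in TPA. Slc35f1, the receptor gene Cd300lb and Notch4 were near mainly through TPA against control, and their CDDO+TPA against TPA log2 fold changes of 0.74, 0.67 and 0.66 were not past the rule. With the widened interval, Mcpt8, Sgk2, Ptpn22 and Pdgfra were no longer past it in CDDO+TPA against TPA.

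Hardly any other gene of the prolactin family was detected. Of 24 relatives, among them Prl, the placental lactogens and Gh, 21 had 0 reads in every library. Prl2c1 had 11 reads in CDDO+TPA, 3 in TPA and 0 in control, the same order as the proliferins, and was at least 2.55-fold higher in CDDO+TPA than in control by the interval, with a fold of 3.72 against the floor. In CDDO+TPA against TPA its ratio of 3.70 had an interval from 0.978 to 20.7 and was not past the rule. Of its 75-base windows, 15.3% occurred without a mismatch in a proliferin transcript. The remaining reads were 1 for Prl7a1 in CDDO+TPA and 1 for Prl3d1 in control.

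Trophoblast markers were few and, summed, highest in TPA, unlike proliferin. The sums rest on 10, 39 and 6 reads in CDDO+TPA, TPA and control, and 2 of the markers were tested. Of 19 such markers, 3 of them also prolactin family genes, 11 had 0 reads in every library, and the summed level was 1.27 CPM in CDDO+TPA, 4.90 CPM in TPA and 0.749 CPM in control. Ascl2, a trophoblast transcription factor, had 2 reads in CDDO+TPA, 18 in TPA and 3 in control, and Hand1, which drives giant cell formation, had 0 in CDDO+TPA, 7 in TPA and 0 in control. Syna, a syncytin, had 7, 10 and 0 reads in CDDO+TPA, TPA and control. Like proliferin it was past the rule in both treated libraries against control. In CDDO+TPA against TPA its ratio was 0.706 (0.228 to 2.06), not past the rule. The line itself showed few epidermal markers. Of 10 keratinocyte markers 4 had 0 reads in every library (Krt5, Krt1, Epcam and Krt18), and the 10 summed to 8.87 CPM in CDDO+TPA, 11.4 CPM in TPA and 14.4 CPM in control. Most of this was Krt10, with 52 of 70 reads in CDDO+TPA, 73 of 91 in TPA and 104 of 115 in control. The 8 mesenchymal markers, Pdgfrb among them, summed to 2335 CPM in CDDO+TPA, 1928 CPM in TPA and 3030 CPM in control. Fn1 alone held 1391, 1087 and 1519 CPM of these, in the same order. Not every marker followed the order of the sum, and Vim and Pdgfrb did not. The 4 endothelial markers had 9, 17 and 6 reads in CDDO+TPA, TPA and control.

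Receptor and mannose 6-phosphate pathway genes, with those of prolactin and growth hormone signalling, varied far less than proliferin. In the list of receptors and the mannose 6-phosphate pathway, 13 of 14 genes were tested, and 0 were past the rule in TPA against control. In CDDO+TPA against TPA 1 was higher, the growth factor gene Igf2 with 24 reads in CDDO+TPA and 7 in TPA, and in CDDO+TPA against control 0 were past it. Igf2 was not followed under the widened interval. The medians were -0.26, 0.19 and -0.08, beside 0.00, 0.01 and -0.02 for all genes tested. Over all genes tested, 9.57%, 7.87% and 8.02% were higher and 5.91%, 7.78% and 3.37% lower, in the same order. With 13 genes tested, the list counts lie near these shares. Igf2r had 492 CPM in CDDO+TPA, 375 CPM in TPA and 506 CPM in control, and was 1.31-fold higher in CDDO+TPA than in TPA (1.25 to 1.37), below the rule. Prlr, the prolactin receptor gene, had 4 reads in CDDO+TPA, 1 in TPA and 2 in control.

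No AP-1 gene was higher by the size rule in any comparison. Of the list's 19 genes 15 were tested, and 0 were higher and 0 lower in either TPA against control or CDDO+TPA against TPA, with medians of -0.19 and -0.26. In CDDO+TPA against control 1 was lower, the stress-induced factor gene Atf3, and the median was -0.36. Of all genes tested, 9.57% were higher and 5.91% lower in TPA against control. The shares were 7.87% and 7.78% in CDDO+TPA against TPA, and 8.02% and 3.37% in CDDO+TPA against control. With 15 genes tested, the AP-1 counts lie near these shares. Jun had 184 CPM in CDDO+TPA, 235 CPM in TPA and 306 CPM in control, and Fos 21.5 CPM in CDDO+TPA, 15.8 CPM in TPA and 24.0 CPM in control. Fosl1, a Fos relative known for late and lasting induction, had 51.1 CPM in CDDO+TPA, 53.0 CPM in TPA and 42.3 CPM in control. These are RNA levels at the end of repeated dosing and hold no measure of AP-1 activity. Atf3 was not past the rule with the widened interval.

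The glucocorticoid list went both ways. Of 16 genes 14 were tested: 0 were higher and 3 lower in TPA against control, 2 higher and 2 lower in CDDO+TPA against TPA, and 1 higher and 2 lower in CDDO+TPA against control, with medians of -0.05, 0.19 and -0.15. For all genes tested, the shares higher and lower were 9.57% and 5.91% in TPA against control. They were 7.87% and 7.78% in CDDO+TPA against TPA, and 8.02% and 3.37% in CDDO+TPA against control. Nr3c1, the glucocorticoid receptor gene, had 242 CPM in CDDO+TPA, 268 CPM in TPA and 286 CPM in control. Hsd11b1, whose enzyme regenerates active glucocorticoid, had 142 reads in CDDO+TPA, 15 in TPA and 89 in control, and was 9.55-fold higher in CDDO+TPA than in TPA (5.60 to 17.5). Hsd11b2, whose enzyme inactivates the hormone, had 3 reads in CDDO+TPA, 18 in TPA and 12 in control. Per1 was 2.63-fold lower in CDDO+TPA than in TPA (2.36 to 2.92). Sgk1 was 2.04-fold higher in CDDO+TPA than in control (1.83 to 2.26), and Cebpd was 3.10-fold lower in TPA than in control (2.67 to 3.60). Lcn2, the remaining gene past the rule, had 34.0 CPM in CDDO+TPA, 2.64 CPM in TPA and 46.5 CPM in control. Sgk1 had 136 CPM in CDDO+TPA, 80.7 CPM in TPA and 66.8 CPM in control. With the widened interval, Per1 in CDDO+TPA against TPA and Sgk1 and Cebpd in CDDO+TPA against control were no longer past the rule. Hsd11b2 was not followed under that interval.

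Among 11 tested genes of 12 in the serum and growth factor list, 1 was higher and 1 lower in each comparison, with medians of -0.09 in TPA against control, -0.11 in CDDO+TPA against TPA and -0.12 in CDDO+TPA against control. Over all genes tested, 9.57%, 7.87% and 8.02% were higher and 5.91%, 7.78% and 3.37% lower, in the same order. With 11 genes tested, the list counts lie near these shares. The gene that was higher was Pdgfra each time. Pdgfrb, the gene of the other PDGF receptor chain, had 26.1 CPM in CDDO+TPA, 81.5 CPM in TPA and 86.6 CPM in control. Egfr, the EGF receptor gene, was 2.17-fold lower in TPA than in control (1.84 to 2.57), and not past the rule with the widened interval.

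**Figure D4:**
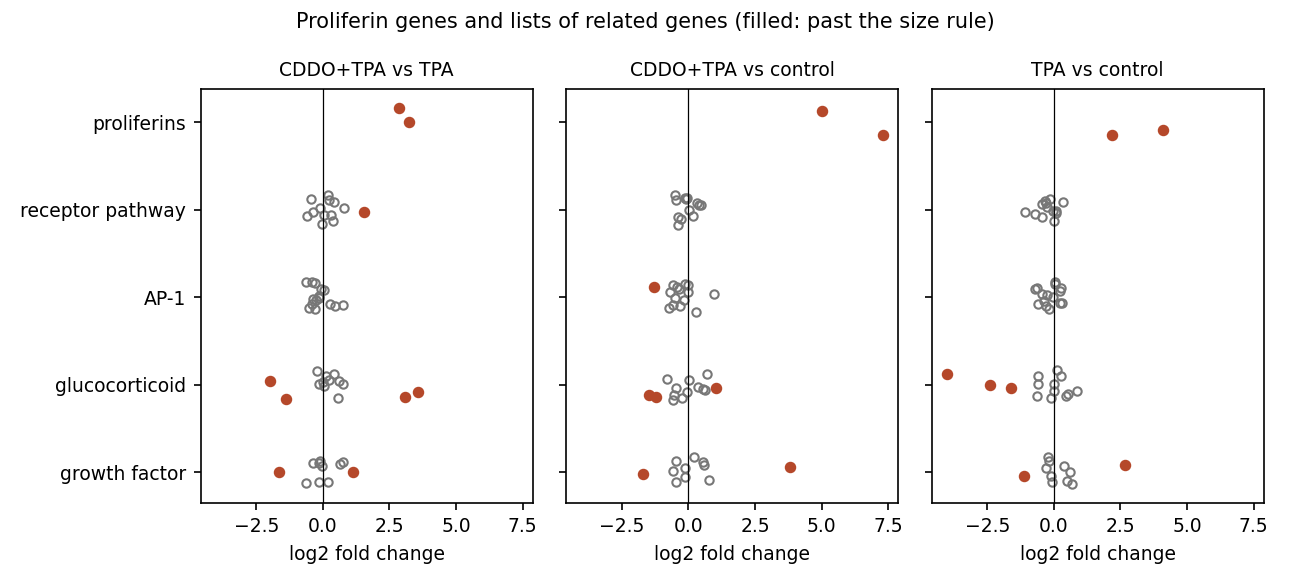
Log2 fold changes of the tested proliferin genes and of the genes of 4 related lists in CDDO+TPA against TPA, CDDO+TPA against control and TPA against control; filled red points are past the size rule. Prl2c2 and Prl2c5 lie at 3.22 and 2.84 in CDDO+TPA against TPA. No AP-1 gene is past the rule there, where 7.87% of all genes tested are higher and 7.78% lower.

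Promoter sequence is shown because Prl2c2 and Prl2c5 stood in the same order in all libraries and proliferin is known for an AP-1 element. The RefSeq promoter table of GRCm38.p6 held 2 of the 4 symbols, Prl2c3 and Prl2c5. It had no entry for Prl2c2, which held most counted reads, and the Prl2c3 counts are not levels of expression. The sequences therefore cannot be set against the levels of Prl2c2 and Prl2c5. The 250 bases before each start are printed on the gene's own strand, with capitals for a match to the AP-1 motif TGANTCA or to the TATA-like run TATATAA.
Prl2c3, chr13:12800080-12800329, minus strand: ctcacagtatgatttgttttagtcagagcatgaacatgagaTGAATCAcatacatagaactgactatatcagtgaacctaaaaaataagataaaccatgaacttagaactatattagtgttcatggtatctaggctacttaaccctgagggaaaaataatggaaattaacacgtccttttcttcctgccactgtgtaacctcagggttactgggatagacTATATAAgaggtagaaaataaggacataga
Prl2c5, chr13:13182466-13182715, plus strand: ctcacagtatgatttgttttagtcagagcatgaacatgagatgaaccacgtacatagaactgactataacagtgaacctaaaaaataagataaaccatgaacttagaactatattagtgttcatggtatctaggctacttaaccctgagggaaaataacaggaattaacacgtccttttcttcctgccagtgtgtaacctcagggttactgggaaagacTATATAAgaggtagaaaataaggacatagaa
The windows differed at 8 of 249 aligned bases, an identity of 96.8%. Prl2c3 held the AP-1 motif 209 bases before the start, and Prl2c5 did not, since T46C (Prl2c3 base first, counted from 1 at the 5′ end of the window) falls within it. Of 32536 promoter windows of this length, 6.73% held that motif on either strand, and 3.02% held the TATA-like run, which both copies had 30 or 31 bases before the start. Neither window held the glucocorticoid receptor motif TGTTCT, the antioxidant response element core TGACNNNGC or the cAMP response element TGACGTCA, which occurred on either strand in 16.0%, 10.2% and 1.56% of windows. A match describes letters and not a bound site, and these letters may lie outside the window. Only exact letters were searched, so a site that departs from them is missed in either window. Whether either copy holds the known AP-1 and glucocorticoid receptor element was not tested.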

How the data were processed

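The authors deposited raw read counts per gene symbol in 1 table. Per the file headers, the program was featureCounts 1.5.3 with an mm10 annotation from UCSC, counting primary alignments of files named as deduplicated, with no option for strand or for reads that touch several genes. HISAT2, Picard and DESeq are named without a version in the submitters' processing notes. Columns were matched to samples by name; the CDDO column does not mention TPA and was assigned to CDDO+TPA, since no other sample lists CDDO. The CDDO+TPA, TPA and control libraries held 7872089, 7813035 and 8190078 assigned reads, and the placing of reads among identical copies was not stated.

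Library sizes were scaled by TMM factors (edgeR 4.0.16, R 4.3.3), 1.00, 1.02 and 0.978 for CDDO+TPA, TPA and control. Folds are ratios of CPM with exact conditional binomial 95% intervals. Log2 fold changes use a prior count of 2. Alternatives were DESeq2 1.42.0 size factors, total counts, upper quartile, prior counts of 0.5 and 5, other filters, a widened interval and other sums. The calling code was tested on simulated data. Sequences were compared with Biopython 1.88. Named genes are the members, the list genes past the size rule with at least 10 CPM in a library, Igf2r, Prlr, Nr3c1, Jun, Fos and Fosl1, and the 8 nearest genes; Igf2, Hsd11b2, Prl2c1 and the marker and neighbouring genes named were chosen after their values were seen. The members and lists were chosen with earlier results of these data known.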

Additional observations from a re-analysis of the deposited data

How the results depend on the processing

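No paired analysis was possible because each group had 1 library. Of the proliferin sum and the named genes past the size rule, none changed direction under an alternative. Other genes, among them Igf2, Hsd11b2, Prl2c1 and the neighbouring genes, were counted but not followed singly. Igf2r, which was not past the size rule, had a log2 fold change of -0.04 in CDDO+TPA against control and 0.00 with upper-quartile scaling. The proliferin sum, Prl2c2 and Prl2c5 kept their side of the size rule under every alternative run except 1: with an assumed coefficient of variation of 0.4 in the interval, Prl2c5, at a log2 fold change of 2.17 in TPA against control, was no longer past it. Against the empty control library the log2 value follows the prior count. With a prior count of 5 the log2 fold change was 3.17 for the sum and 2.89 for Prl2c2 in TPA against control. It was 6.27 for the sum, 6.00 for Prl2c2 and 3.76 for Prl2c5 in CDDO+TPA against control. Prl2c5 was not tested where the mean had to reach 10 CPM. Without Prl2c2 the sum had 2.32 for TPA and 5.12 for CDDO+TPA, each against control, and adding Prl2c1 moved the CDDO+TPA against TPA fold to 9.15.

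Counts of genes past the size rule were 2028 in TPA against control (1254 higher, 774 lower), 2050 in CDDO+TPA against TPA (1031 higher, 1019 lower) and 1493 in CDDO+TPA against control (1051 higher, 442 lower). With the widened interval they were 822 (593 higher, 229 lower), 858 (375 higher, 483 lower) and 547 (407 higher, 140 lower). With a mean of at least 10 CPM they were 857 (381 higher, 476 lower), 749 (522 higher, 227 lower) and 672 (507 higher, 165 lower). The wider interval and the smaller set of genes tested lower these counts by construction. In CDDO+TPA against TPA the larger side also turned with scaling, to 983 higher and 1061 lower with total reads and 987 higher and 1052 lower with the upper quartile. With 0 counted proliferin reads in control, both comparisons with it give bounds alone, and the sum in TPA rests on 40 reads.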

Other observations

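The genes around the proliferin block on chromosome 13 were also read, in a window set after seeing the table. Of 17 genes within 1 Mb of the block, which spans 401 kb, 13 were tested. In TPA against control 0 were higher and 2 lower (Gm10336 and Mtr), in CDDO+TPA against TPA 2 were higher (Nid1 and Lyst) and 0 lower, and in CDDO+TPA against control 2 were higher (Nid1 and Ero1lb) and 0 lower. Nid1, which encodes the basement membrane protein nidogen, lies 246 kb beyond the block and was 3.51-fold higher in CDDO+TPA than in TPA (95% counting interval 3.31 to 3.71), with 690 CPM in CDDO+TPA, 197 CPM in TPA and 217 CPM in control. Lyst, a regulator of lysosome size, had 154 CPM in CDDO+TPA, 73.8 CPM in TPA and 128 CPM in control. The nearest gene on one side, Gpr137b-ps, had 150 CPM in CDDO+TPA, 97.7 CPM in TPA and 98.3 CPM in control. On the other side Gpr137b had 176 CPM in CDDO+TPA, 101 CPM in TPA and 94.3 CPM in control. The median log2 fold change of the 13 was -0.14 in TPA against control, 0.50 in CDDO+TPA against TPA and -0.00 in CDDO+TPA against control, beside 0.00, 0.01 and -0.02 for all genes tested. Over all genes tested, 9.57%, 7.87% and 8.02% were higher and 5.91%, 7.78% and 3.37% lower, in the same order. The neighbouring genes were not followed under the widened interval.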
